A study of Mus musculus with 8 samples.

Results

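Core non-homologous end joining genes encode the proteins that rejoin the 2 ends of a broken DNA molecule without a template, and 9 of them were followed here: Xrcc5, Xrcc6, Prkdc, Lig4, Xrcc4, Nhej1, Dclre1c, Polm and Poll. They were taken by gene name from the probe annotation of the arrays, where 9 of 30325 named genes matched, carried by 13 probes and 22 spots. The arrays measured RNA of the lower crypt of the jejunum, the base of the intestinal gland, collected from fixed sections with a laser, 1 array per mouse. The fasted group was 4 mice, 2 labelled male and 2 female, kept without food for 24 h, then given 80 mg/kg etoposide into a tail vein and sampled 3 h later. The fed group was 4 mice, again 2 labelled male and 2 female, that ate before the same dose and the same 3 h. All 8 mice were 4 to 6 weeks old and heterozygous for Lgr5EGFP-IRES-CreERT2, a reporter and Cre cassette in a crypt stem cell gene, and all were housed alone with moistened food once injected. Every array thus comes from a drug-treated mouse with food at hand in its last hours, so the values compare feeding before the drug and say nothing of the response to it.

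Etoposide traps topoisomerase II on DNA and leaves double-strand breaks. In end joining, the Ku ring made of Ku70 and Ku80 slides onto each end and recruits the kinase DNA-PKcs, which in turn activates the nuclease Artemis to trim ends that cannot be joined as they are. The polymerases mu and lambda fill gaps, and DNA ligase IV seals the strand together with its partner XRCC4 and with XLF. The pathway works in all phases of the cell cycle, in resting as well as dividing cells, and the same factors join the breaks that lymphocytes make when they assemble antigen receptor genes.

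The probes are what was measured, so the first 30 of the 60 bases are shown for the Ku genes and for both genes with several probes, whose probes read different transcripts or different stretches of one. They are printed in lower case on the transcript strand, as the scanner files give them, with positions in mm9, the build that the file headers give. The Xrcc6 probe lies at chr15:81870452-81870511 on the plus strand. The Xrcc5 probe reads chr1:72430014-72430320 on the plus strand, a span of 307 bases for a 60-base oligo, so it crosses a gap in the genome as a probe over a splice junction does. The Prkdc probe likewise spans 2606 bases, chr16:15839317-15841922. The Dclre1c probes lie at chr2:3371015-3371074 (A_55_P2129291) and chr2:3370687-3370746 (A_52_P462203) for the transcript NM_146114, and at chr2:3376817-3376876 (A_55_P2067116) and chr2:3378320-3378379 (A_55_P2067131) for NM_175683. The Polm probes lie on the minus strand at chr11:5727884-5727943 (A_55_P2042590, transcript NM_017401) and chr11:5728032-5728091 (A_55_P2122255, cDNA AJ251804). The other probes lie at chr8:9970290-9970349 for Lig4, chr13:89988731-89988790 for Xrcc4, chr1:75014076-75014135 for Nhej1 and chr19:45626858-45626917 for Poll, all on the minus strand. Whether a probe lies in coding sequence or in a UTR was not determined, as no annotation of mm9 was used here.
Xrcc6: tcatggagattacagtctcccacctcactg
Xrcc5: aaattgttgttcaggatggagttactctga
Dclre1c A_55_P2129291: caggaaactggcaacaggtcaaagtatagt
Dclre1c A_52_P462203: tgttatcttcccaagagaaaagtggtgggg
Dclre1c A_55_P2067116: gatgggctctggaccttaaataagatgact
Dclre1c A_55_P2067131: gcccttattgcctggtacttgaatgatgaa
Polm A_55_P2042590: gatgcgggcctcctagatcagtcagcagat
Polm A_55_P2122255: tttttgagaccaacttcttcaccttttctg

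A value below is a log2 Cy5 signal relative to the 75th percentile of its own array, so 0 is a signal that 75% of probes lie under. It compares arrays for one probe and not one gene with another. On an array 53.2% to 65.7% of probes were called well above background, Feature Extraction's own mark for a spot clearly brighter than its surroundings. The arrays lay on 5 slides, and 3 of these carried 1 array of either group. Fasted replicate 3 was the only array of a second scan day. That array also had the lowest correlation with another array across genes, 0.827 with fed replicate 4. The array labelled female as fed replicate 4 went against its label: Xist stood at -6.01 on it, against 2.43 to 3.33 on the other arrays labelled female, and the Y-linked Eif2s3y was well above background on it. Of the checks of the tissue, Olfm4, a crypt base stem cell marker, and Lyz1, the Paneth cell lysozyme, were well above background on all 8 arrays. Lgr5 was on 0 of 8, so the reporter's own gene was not measurable, and Ptprc, carried by leukocytes, was well above background on 8 of 8.

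Of the 9 genes 8 passed the filter, which asked for 4 or more of the 8 arrays with a signal well above background, and Lig4 did not. No core end joining gene differed between fasted and fed crypts past the threshold, and neither did any other gene: limma called 0 of 19534 genes (0%) at an adjusted p of 0.05. The 8 genes split into 6 with a higher mean in fasted crypts and 2 with a lower one, where 44.5% of all genes tested had a higher mean in fasted crypts. Their median log2 difference was 0.35, against -0.06 over all genes tested. The mean was at least 0.3 higher in fasted crypts for 4 of the 8, Prkdc, Xrcc5, Xrcc6 and Dclre1c, and for 20.7% of all genes. Prkdc was well above background on 1 fed array and Dclre1c on 2, and with normexp background correction they were at 0.15 and 0.12, where the median of the 8 was 0.14. That median was 0.20 without fed replicate 1. A single one, Xrcc6, had an unadjusted p under 0.05, in a table where 5.94% of genes did, 3.93% with the higher mean in fasted crypts. Without fasted replicate 3 and fed replicate 4, both described above, 5 of the 8 were higher and 3 lower in fasted crypts, at a median of 0.25. Differences of the 8 ranged from -0.44 to 0.70 on the log2 scale.

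**Figure D1:**
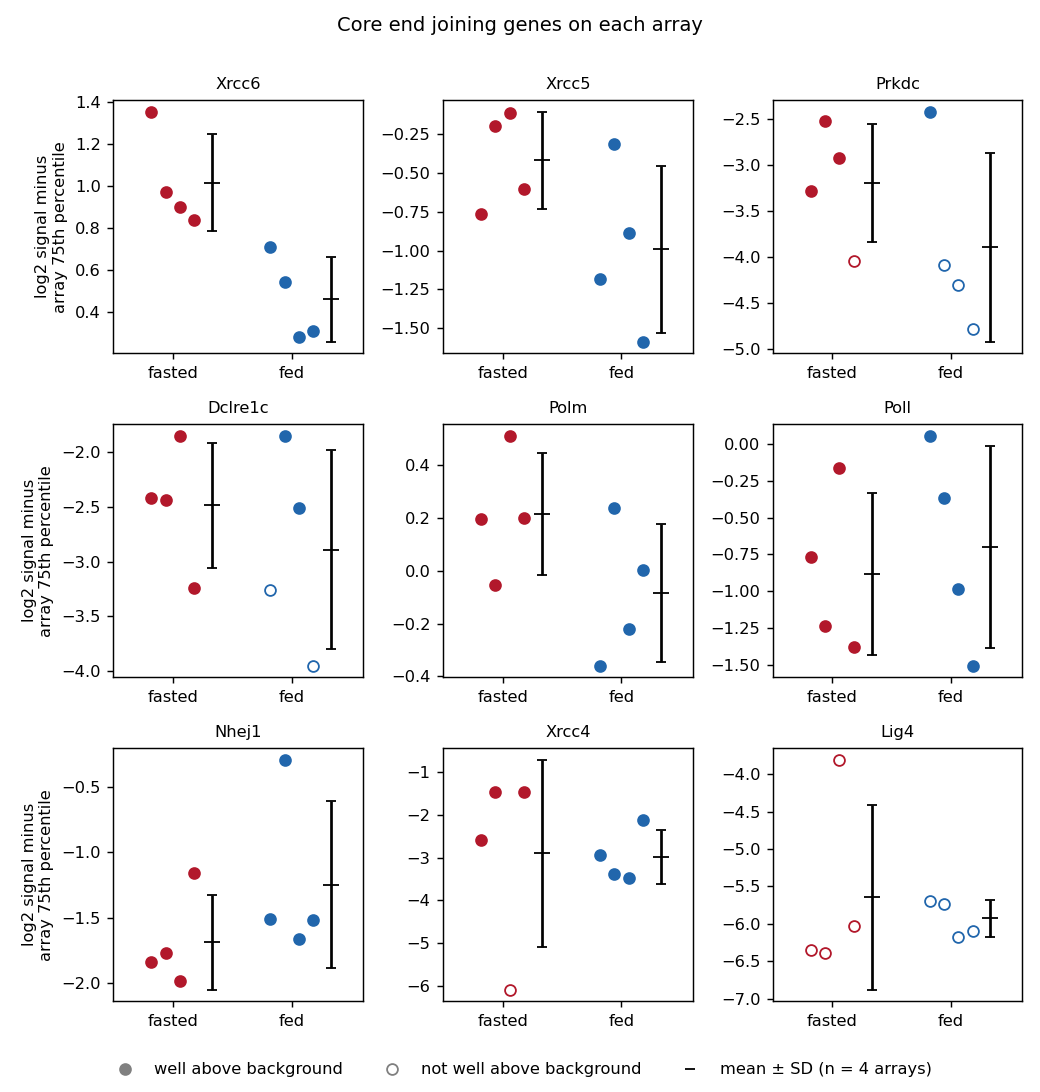
Log2 signal minus the array's 75th percentile (vertical axes, each with its own scale) for the 9 genes, with the 4 fasted arrays left of the 4 fed arrays in replicate order. Filled points are well above background, open points are not, and the bar is the mean with its SD (n = 4 arrays). Only for Xrcc6 do all 4 fasted arrays lie above all 4 fed arrays, and Lig4 has open points alone.

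Ku70 is encoded by Xrcc6 and forms the ring that first grips a broken end. Xrcc6 stood at 1.35, 0.97, 0.90 and 0.84 in fasted replicates 1 to 4, against 0.71, 0.54, 0.28 and 0.31 in fed replicates 1 to 4. All fasted arrays were above all fed arrays, with a gap of 0.13 between the nearest pair, which 2.99% of all genes also showed in this direction. Fasted crypts averaged 1.02 ± 0.23 and fed crypts 0.46 ± 0.20 (SD, n = 4 each), a log2 difference of 0.56 (SE 0.19) or 1.47-fold. The 95% interval of that fold, not adjusted for the number of genes, ran from 1.09 to 1.98. In limma's test the unadjusted p was 0.0177, rank 405 of 19534 genes, and the adjusted p was 0.788, so the difference did not pass. It was 0.55 with arrays scaled on their median, but there the groups overlapped and the unadjusted limma p was 0.11. The groups also overlapped with normexp background correction, at a difference of 0.51, and in the authors' deposited matrix, at 0.48.

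Ku80, the other side of the ring, is encoded by Xrcc5. Xrcc5 stood at -0.76, -0.19, -0.11 and -0.60 in fasted replicates 1 to 4, against -1.18, -0.31, -0.89 and -1.59 in fed replicates 1 to 4. The groups overlapped through fed replicate 2, which lay above 2 of the fasted arrays. Fasted crypts averaged -0.42 ± 0.31 and fed crypts -0.99 ± 0.54 (SD, n = 4 each). The log2 difference was 0.57 (SE 0.33, adjusted p = 0.788 in limma), close in size to that of Xrcc6 with a wider spread. It was 0.81 without fed replicate 2, and 0.37 without fed replicate 4. With fasted replicate 3 and fed replicate 4 both left out it was 0.27, and that of Xrcc6 was 0.54.

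Prkdc encodes DNA-PKcs, the kinase that Ku brings to the end. It is the one gene of the 9 printed as 10 spots on each array, which shows the error between spots of 1 array: their SD was between 0.08 and 0.35. Prkdc stood at -3.28, -2.53, -2.93 and -4.04 in fasted replicates 1 to 4, against -2.42, -4.09, -4.30 and -4.78 in fed replicates 1 to 4. Fed replicate 1 was the brightest of all 8, and the groups overlapped through it. In the fasted group 3 arrays had it well above background and in the fed group 1, so it passed the filter mainly through the fasted group. The log2 difference was 0.70 (SE 0.55, adjusted p = 0.794 in limma). Without fed replicate 1, the only fed array with Prkdc well above background, it was 1.11. The groups then no longer overlapped, which leaving out that array made certain. Normexp background correction brought the difference to 0.15.

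Artemis, the nuclease that opens hairpins and trims overhangs, is encoded by Dclre1c. Its brightest probe, A_55_P2129291, stood at -2.42, -2.43, -1.85 and -3.24 in fasted replicates 1 to 4, against -3.26, -1.85, -2.51 and -3.95 in fed replicates 1 to 4. The highest fasted array and the highest fed array were equal to the second decimal, and the log2 difference of 0.41 (SE 0.53) had an adjusted p of 0.847 in limma. It was 0.07 without fasted replicate 3, 0.06 without fed replicate 4 and 0.75 without fed replicate 2. The second probe for the same transcript, A_52_P462203, differed the other way, by -0.36 (SE 0.49), as fasted crypts averaged -3.95 ± 0.43 and fed crypts -3.58 ± 0.48 (SD, n = 4 each). It was well above background on only 2 arrays of each group, and the mean of the gene's probes gave 0.02.

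The transcript NM_175683 was read by 2 further Dclre1c probes, and neither passed the filter. A_55_P2067116 stood at -3.17, -4.72, -3.83 and -3.49 in fasted replicates 1 to 4, against -5.41, -5.34, -5.56 and -4.03 in fed replicates 1 to 4. It was well above background on fasted replicates 1 and 4 and on 0 fed arrays. Measured against the lowest signal that counts as well above background on the fed arrays, the fasted mean of -3.80 was no higher than their -3.77, so no fold can be given. A_55_P2067131 was well above background on 0 of 8 arrays. That leaves 2 of the 4 probes to read, both for NM_146114, and their differences had opposite signs, neither past the threshold.

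**Figure D2:**
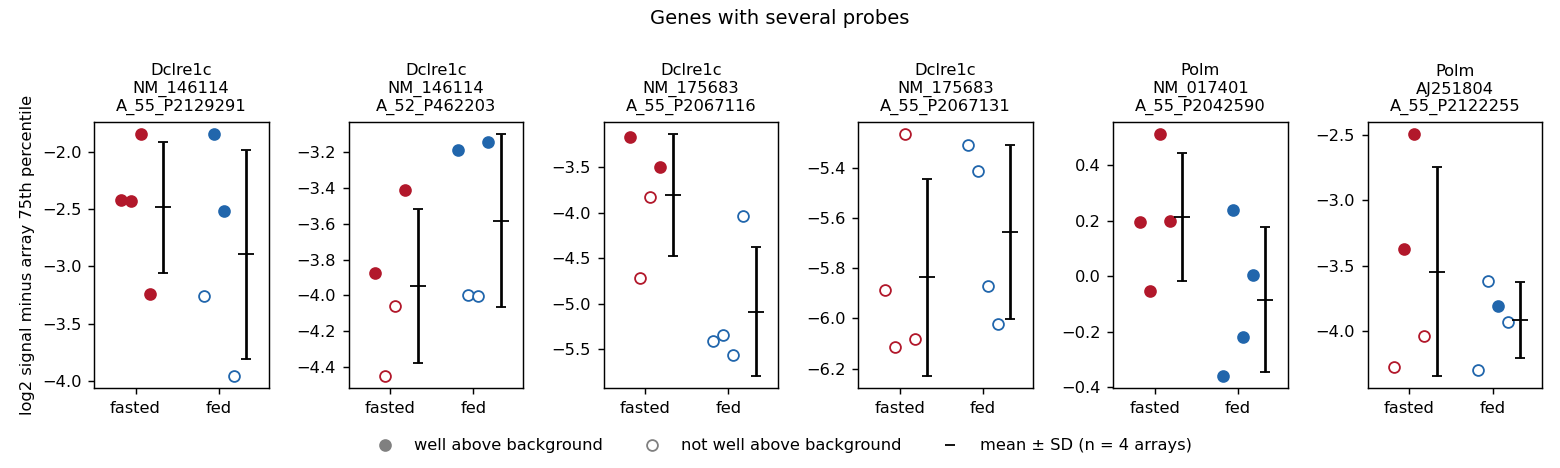
Log2 signal minus the array's 75th percentile (vertical axes, each with its own scale) for the 4 Dclre1c and 2 Polm probes, fasted arrays left and fed arrays right. Filled points are well above background, and bars are means with SD (n = 4 arrays). Both NM_175683 probes have only open points on the fed arrays, so their means give no direction, and the 2 NM_146114 probes differ in sign.

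The gap-filling polymerases are paralogues of the lymphoid enzyme terminal transferase. Polm, which encodes polymerase mu, stood at 0.20, -0.05, 0.51 and 0.20 in fasted replicates 1 to 4, against -0.36, 0.24, -0.22 and 0.00 in fed replicates 1 to 4. Fed replicate 2 lay above 3 of the fasted arrays, and the log2 difference was 0.30 (SE 0.23, adjusted p = 0.794 in limma). The second Polm probe reached that mark on 2 fasted arrays and on 1 fed array and failed the filter. It averaged -3.55 ± 0.80 in fasted crypts and -3.91 ± 0.29 in fed crypts (SD, n = 4 each). Poll, which encodes polymerase lambda, stood at -0.76, -1.24, -0.16 and -1.38 in fasted replicates 1 to 4, against 0.06, -0.37, -0.99 and -1.50 in fed replicates 1 to 4. Both groups covered nearly the same range, with a log2 difference of -0.18 (SE 0.40, adjusted p = 0.911 in limma). Its sign turned without fasted replicate 2 (0.04) and without fed replicate 1 (0.03). It was -0.56 without fasted replicate 3, and -0.69 with fed replicate 4 left out as well (unadjusted p = 0.0426, adjusted p = 0.541 in limma). In that fit 1750 of 19534 genes had an unadjusted p under 0.05, and Poll had one in no other alternative.

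The ligation step rests on Lig4, Xrcc4 and Nhej1. Lig4, the ligase itself, was well above background on 0 of 8 arrays, with signals of -6.36, -6.39, -3.81 and -6.03 in fasted replicates 1 to 4, against -5.70, -5.73, -6.18 and -6.10 in fed replicates 1 to 4. These values have no order and no fold. Low signal on this probe shows that its RNA was not detectable here, not that the ligase was absent.

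Xrcc4, the scaffold that holds the ligase, stood at -2.60, -1.46, -6.10 and -1.45 in fasted replicates 1 to 4, against -2.95, -3.39, -3.49 and -2.12 in fed replicates 1 to 4. Fasted replicate 3 was far below the others and was the 1 array on which the probe was not well above background. The log2 difference of 0.09 had an SE of 1.00 and an adjusted p of 0.985 in limma, so a difference of several-fold in either direction lay inside its interval, from -2.20 to 2.37. Without fasted replicate 3 it was 1.22, and with fed replicate 4 left out as well 1.44 with no overlap of the groups. Those were the lowest fasted and the highest fed array of this gene, and the share of all genes without overlap there was not counted. The difference was -0.63 without fasted replicate 4 and -0.99 in the authors' deposited matrix.

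Nhej1 encodes XLF, which lines up with XRCC4 to bridge the ends. Nhej1 stood at -1.84, -1.77, -1.98 and -1.16 in fasted replicates 1 to 4, against -1.51, -0.29, -1.66 and -1.52 in fed replicates 1 to 4. Fed replicate 2 lay well above the other fed arrays, which were close together, and the groups overlapped. The log2 difference was -0.44 (SE 0.38, adjusted p = 0.798 in limma), the lowest of the 8 genes, and -0.11 without fed replicate 2. Without fasted replicate 4, the highest fasted array, it was -0.70, with all remaining fasted arrays below all fed arrays. The share of all genes without overlap in that setting was not counted.

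**Figure D3:**
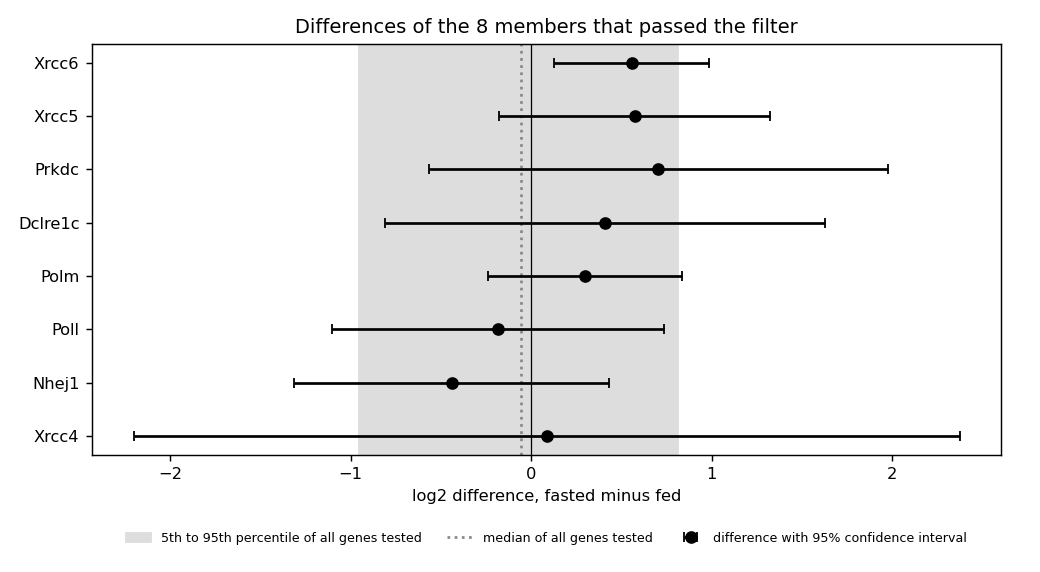
Log2 difference, fasted minus fed (horizontal axis), of the 8 genes that passed the filter, with 95% confidence intervals from limma that are not adjusted for the number of genes. The grey band runs from the 5th to the 95th percentile of all 19534 genes tested, -0.95 to 0.81, and every point lies inside it. The interval of Xrcc6, 0.12 to 0.99, is the only one that leaves out 0.

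Arrays on a slide share its handling, so differences within the 3 slides with both groups are given for each gene. They come from the same arrays and are not independent of the values above. Xrcc6 and Xrcc5 were higher on the fasted array of every such slide, which for Xrcc6 follows from its groups not overlapping. For Xrcc6 the fasted minus fed values were 0.64, 0.69 and 0.53 for the pairs fasted 1 and fed 1, fasted 2 and fed 3, and fasted 4 and fed 4. For Xrcc5 they were 0.42, 0.69 and 0.98 in the same order. Polm gave 0.56, 0.17 and 0.20 and Xrcc4 0.35, 2.02 and 0.67, all above 0 as well. The brightest Dclre1c probe gave 0.84, 0.08 and 0.72, while the second probe for its transcript, A_52_P462203, gave -0.68, -0.44 and -0.27. How many of all genes lay above 0 on every such slide was not counted. Prkdc gave -0.86, 1.78 and 0.74, Poll -0.82, -0.25 and 0.13, and Nhej1 -0.33, -0.10 and 0.36, so these differed in sign between slides. The median of the 8 genes within the slides was 0.39, 0.43 and 0.60, against -0.07, -0.04 and -0.00 over all genes tested. Fasted 2 was labelled male and fed 3 female, and fed 4 went against its female label, so the pairs were not all matched for sex.

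With slide as a fixed block in place of labelled sex, Xrcc6 had a log2 difference of 0.62 (SE 0.17, adjusted p = 0.266 in limma) and Xrcc5 0.70 (SE 0.22, adjusted p = 0.306). Xrcc4 then stood at 1.01 (SE 0.41, adjusted p = 0.366), away from the 0.09 over all 8 arrays, since fasted replicate 3 was alone on its slide and drops out of that fit. Prkdc was at 0.55, Dclre1c at 0.54, Polm at 0.31, Poll at -0.32 and Nhej1 at -0.03. This fit rests on the 6 arrays of shared slides and called 0 genes, with 2559 at an unadjusted p under 0.05. It holds no term for sex, and the pairs on those slides were not all matched for it.

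**Figure D4:**
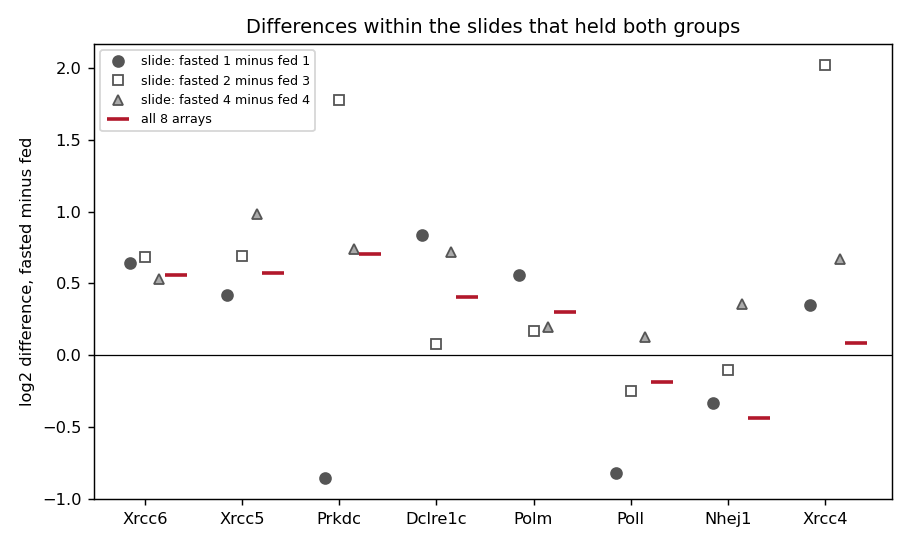
Log2 difference, fasted minus fed (vertical axis), of the 8 genes within each of the 3 slides with both groups (grey or white symbols, 1 array pair each) and over all 8 arrays (red bar). The symbols of Xrcc6 sit together between 0.53 and 0.69, while those of Prkdc run from -0.86 to 1.78. Dclre1c is drawn by its brightest probe alone, and the second probe for that transcript was below 0 on each slide. The pairs were not all matched for sex.

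Markers of absorptive enterocytes, cells that mature above the crypt base, were higher in the same fasted arrays. Of 24 such genes 22 passed the filter, 22 of 22 had a higher mean in fasted crypts, and their summed linear signal was 172 to 269 on fasted arrays and at most 159 on fed arrays, in units of each array's 75th percentile. Paneth cell markers ran the other way in the 6 of 11 that had probes and were measured, with sums of 295 to 335 on fasted and 346 to 544 on fed arrays. Linear sums follow the brightest genes. Taken singly, 8 of the 22 enterocyte and 2 of the 6 Paneth cell genes had groups apart, against 2.99% and 1.98% of all genes. Proliferation markers overlapped, with sums of 13.4 to 28.9 on fasted and 14.3 to 21.3 on fed arrays, as did leukocyte markers, with 29.5 to 49.9 on fasted and 37.2 to 57.8 on fed arrays. Of the T cell genes Cd3e was well above background on 8 of 8 arrays, Cd8a on at most 3 and Cd3g on 0 of 8. Olfm4 was lower on all 4 fasted arrays, at 0.91 to 2.37, than on the fed arrays, at 2.44 to 3.32. The groups of 1.98% of all genes also lay apart in this direction. The log2 difference of Olfm4 was -1.11 (SE 0.24, adjusted p = 0.788 in limma). Of 13 measured crypt base stem cell markers it alone had groups apart, and 5 had a higher and 8 a lower mean in fasted crypts. Sums overlapped for the whole list of crypt base stem cell markers (43.2 to 58.3 on fasted, 45.7 to 81.7 on fed arrays), goblet cell markers (288 to 330 and 305 to 363) and fibroblast and smooth muscle markers (36.9 to 78.8 and 27.9 to 119). The part of these cell types in the values of Xrcc6 and Xrcc5 was not tested, and in captured tissue fewer cells of a type and less RNA per cell cannot be told apart.

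Genes that assist end joining were taken from a list of 9, of which 6 passed the filter, 4 with a higher and 2 with a lower mean in fasted crypts and 0 past the threshold. Their median log2 difference was 0.07. Cyren, a small protein that restrains end joining, had a log2 difference of -0.52 (SE 0.31). Paxx, a structural relative of XLF that binds Ku, was at 0.13 (SE 0.19) and Aplf, a scaffold for XRCC4, at 0.20 (SE 0.38). Tdp2, which removes trapped topoisomerase II from DNA ends, was well above background on 0 of 8 arrays.

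Among genes that sense breaks or protect the ends from resection, 13 of 16 passed the filter, 10 with a higher and 3 with a lower mean in fasted crypts and 0 past the threshold, at a median of 0.39. H2afx, the histone variant that is phosphorylated around breaks, stood at 0.50, -0.13, -0.00 and 0.10 in fasted replicates 1 to 4, against -0.21, -0.58, -0.62 and -0.43 in fed replicates 1 to 4. Its groups did not overlap, as for 1 of the 13 genes here and 2.99% of all genes. Its log2 difference was 0.58 (SE 0.23, adjusted p = 0.788 in limma). Within the 3 slides it was 0.71, 0.50 and 0.52, where the sign was fixed by the groups not overlapping. Trp53bp1, the 53BP1 protein that favours end joining, was at 0.84 (SE 0.31), Rif1, its effector, at 0.79 (SE 0.38), and Mdc1, the adaptor on phosphorylated H2AX, at 0.59 (SE 0.32). Rif1 was above 0 within each slide, at 1.08, 0.64 and 0.31, and Mdc1 was not, at 0.60, 1.15 and -0.12. Trp53bp1 was at 1.55, 0.12 and -0.04 within the slides. On the arrays off the shared slides it stood at -0.35 in fasted replicate 3 and -2.10 in fed replicate 2. Atm, the main break-sensing kinase, was well above background on at most 2 arrays and was not tested.

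The alternative route, which joins ends after short resection, gave 10 measured genes of 14, 6 with a higher and 4 with a lower mean in fasted crypts and 0 past the threshold, at a median of 0.19. Parp1, which binds breaks early, was at 0.76 (SE 0.31), Lig3, the ligase of this route, at 0.73 (SE 0.35), and Polq, its polymerase, at 0.99 (SE 0.67). Polq was well above background on only 4 of 8 arrays, and stood at -5.29 and -5.14 in fed replicates 2 and 4. Lig1, the replication ligase, was at -0.66 (SE 0.27), at 2.09 ± 0.40 in fasted crypts and 2.75 ± 0.38 in fed crypts (SD, n = 4 each). All 4 had an adjusted p of 0.788 in limma. Lig3 was thus measurable where Lig4 was not, on different probes that do not allow their levels to be compared. Of the V(D)J recombination genes Rag1, well above background on 5 of 8 arrays, was at 0.93 (SE 0.60). Dntt, terminal transferase, was at -1.06 (SE 0.83), and Rag2 was well above background on 0 of 8 arrays.

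Likeness to a gene's pattern over the 8 arrays was measured as the root mean square difference of centred log2 values, among 13724 genes. Ttyh2 (0.07) and Mgrn1 (0.10) were among the 3 genes most like Xrcc6. Xrcc6 itself varied by 0.34 about its own mean on that measure. For Xrcc5 the nearest were Lrrc20 (0.19), Spry1 (0.19) and Zfc3h1 (0.20), against 0.48 for Xrcc5 itself. None of these 5 is on the end joining lists.

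Promoters were looked up for the Ku pair because their products act as one ring. RefSeq windows of 300 bases in GRCm38.p6, 250 before and 50 after a transcript start, were found for 7 of the 9 genes, 8 windows in all, and not for Prkdc or Poll. The letters searched, on both strands and with overlaps counted, were GGGCGG (GC box), CCAAT, TGACGTCA (CRE), GCGCATGC (NRF1), TTTCCCGC (E2F), TATAAA and CACGTG (E-box). GGGCGG stood in 6 of the 8 windows, against 35.7% of 32851 windows of all genes, and CCAAT in 4 of 8 against 37.4%. TATAAA and TGACGTCA stood in 0 of 8, against 13.6% and 1.79%. These shares were not matched for base composition. The 8 windows held 48.0% to 67.3% G and C, and the median over all windows was 52.7%. The Xrcc6 window held 64.3% G and C, 3 copies of GGGCGG, the letters TTTCCCGC, which 1.07% of windows hold, and CCAAT after the printed stretch. The Xrcc5 window held 48.0% G and C and no GGGCGG. It held GCGCATGC, found in 2.71% of windows, across the end of the printed stretch, CACGTG (7.15%) and CCAAT. The bases before the start are shown on the plus strand, chr15:82016119-82016368 for Xrcc6 and chr1:72307171-72307420 for Xrcc5, with matched letters in capitals. No binding was measured, and a match is a run of letters only.
Xrcc6: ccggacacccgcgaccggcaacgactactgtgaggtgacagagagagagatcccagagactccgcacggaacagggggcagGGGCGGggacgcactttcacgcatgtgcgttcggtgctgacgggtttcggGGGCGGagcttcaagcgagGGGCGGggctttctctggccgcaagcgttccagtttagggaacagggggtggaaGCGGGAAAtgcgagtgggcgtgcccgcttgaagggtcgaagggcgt
Xrcc5: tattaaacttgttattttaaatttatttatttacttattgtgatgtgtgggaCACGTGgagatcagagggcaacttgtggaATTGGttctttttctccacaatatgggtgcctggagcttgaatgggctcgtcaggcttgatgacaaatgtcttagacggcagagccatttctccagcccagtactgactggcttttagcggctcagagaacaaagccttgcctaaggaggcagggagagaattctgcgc

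**Figure D5:**
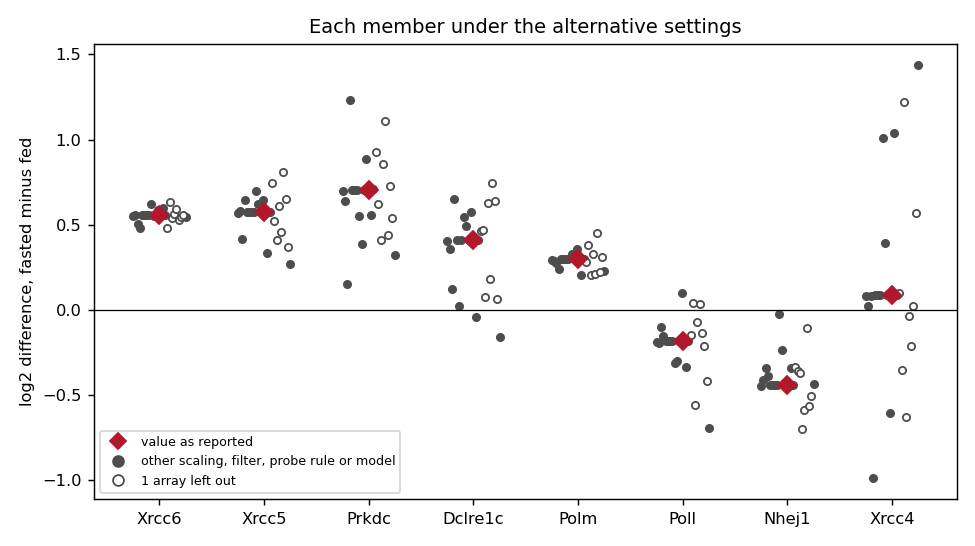
Log2 difference, fasted minus fed (vertical axis), of the 8 genes as reported (red diamonds) and under the alternatives, with filled points for another scaling, filter, probe rule or model and open points for 1 array left out. Xrcc6 stays between 0.48 and 0.64, whereas Xrcc4 runs from -0.99 to 1.44.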

How the data were processed

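Cy5-labelled cDNA of 8 mice was hybridised to single-colour Agilent mouse arrays, as the labels say. Per the file headers, the authors used Feature Extraction 11.5.1.1 to turn each scan into a processed intensity per spot, linear and background-subtracted. A matrix of log2 values was also deposited, with 1 column per array. Its ranks followed the processed signal (Spearman correlation at least 0.9999), its column medians ran from 7.73 to 8.33, and its scaling and centring stay unknown.

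Control spots and outlier spots were left out, the 43020 remaining spots were averaged over 39429 probes on the log2 scale, and each array's 75th percentile was subtracted. A probe with several spots took the call of most of them, ties counting as well above background. Probes with that call on 4 or more of 8 arrays were kept, the brightest stood for a gene, and 19534 genes were tested with limma 3.58.1 (mean trend, labelled sex as a term) in R 4.3.3, adjusted by Benjamini-Hochberg at 0.05. Of the probes 27655 were named through RefSeq accessions. The fit was tested on simulated data. The members, lists and settings were chosen with earlier results of these data known. Named were all members, the 4 genes of smallest p per list and a few fixed genes, of which some are not reported here. The number of arrays limits the precision. The p-values measure the spread between arrays, 1 per mouse, in which mouse, capture, slide and scan day are mixed. The main fit holds no term for slide, and with slide as a random block the correlation within a slide was 0.701. The alternatives covered scaling, background, filter, probe rule, model terms and arrays left out.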

Additional observations from a re-analysis of the deposited data

Results flagged for a closer look

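Each of the 13 probes was checked in each group of 4 arrays for 1 array far from the rest, by Dixon's test at the 95% level. Of 26 checks 3 found one, where chance alone flags about 1 in 20. The Nhej1 probe stood at -0.29 in fed replicate 2, with the nearest fed array at -1.51, and was well above background there. The Lig4 probe stood at -3.81 in fasted replicate 3, with the nearest fasted array at -6.03, in a probe well above background on 0 of 8 arrays. The Dclre1c probe A_55_P2067116 stood at -4.03 in fed replicate 4, with the nearest fed array at -5.34, where 0 of 4 fed arrays had it well above background. These are 3 different arrays.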

How the results depend on the processing

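In 24 alternatives limma called 0 genes each time, with the smallest adjusted p between 0.0675 and 0.998. At an unadjusted p under 0.05 the count was 1161, and it ran from 482 without fasted replicate 1 to 5454 with each array's share of probes called above background as a covariate. Xrcc6, Xrcc5, Prkdc, Polm and Nhej1 kept their direction under every alternative run, and so did the members' median (0.14 to 0.55). Some alternatives could not change the difference of these 5 genes: the other filters, no sex term, the replicate block and no mean trend. Xrcc6 had an unadjusted limma p under 0.05 in 22 of 24, missing it with median scaling and without fasted replicate 1. Its groups overlapped with median scaling, with normexp background correction and in the authors' matrix. Most other alternatives kept the same values or only left out arrays, so there the groups could not come to overlap. Dclre1c turned to -0.0432 with array weights and to -0.16 without fasted replicate 3 and fed replicate 4. Poll turned to 0.10 with the share covariate and ran from -0.559 to 0.043 with 1 array left out. Xrcc4 turned to -0.99 in the authors' matrix and to -0.60 with the share covariate, and ran from -0.63 to 1.22 with 1 array left out. Prkdc and Xrcc4 dropped out, as did Dclre1c, under a filter on all 8 arrays. Where leaving out 1 array leaves a single array of a group and labelled sex, it is assumed to vary like the rest. Replicate numbers did not pair the arrays: deviations of same-numbered arrays correlated at 0.363, -0.454, -0.427 and 0.582 across genes, against 0.363, 0.507 and 0.582 for arrays of a shared slide. Pairs that shared neither ran from -0.49 (fasted 3 and fed 4) to 0.482 (fasted 2 and fed 4). The fit with the replicate block called 0 genes and gave Xrcc6 0.56 (adjusted p = 0.752) and Xrcc5 0.57. Signal near background limits Prkdc, Lig4, Polq, Rag1 and the dimmer Dclre1c and Polm probes.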
